A study of Mus musculus with 12 samples.

Results

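The 84 genes described here encode the enzymes of foreign-compound and aldehyde metabolism outside the cytochrome P450 family. They are flavin monooxygenases (Fmo), aldehyde dehydrogenases (Aldh), carbonyl reductases (Cbr) and carboxylesterases (Ces). The others are glutathione transferases (Gst), microsomal glutathione transferases (Mgst), glucuronosyltransferases (Ugt) and sulfotransferases (Sult). The 84 are the members, by symbol, of these families among the 18193 genes that had at least 1 probe set with a single symbol. Gst symbols were taken only with the letters a, k, m, o, p or t. Of Ugt symbols only Ugt1 and Ugt2 were taken. This rule was met by 123 probe sets. Each gene was represented by its probe set with the highest mean log2 signal over the 12 arrays. The rule used gene symbols, and no difference between the groups entered it. Ugt1a6a had no such probe set and was not analysed here.

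RNA from lungs of B6C3F1 mice, a hybrid of C57BL/6 and C3H used in long-term carcinogenicity bioassays, was measured on Affymetrix arrays. One group held 6 lung tumours that arose spontaneously and the other 6 normal lungs, all from untreated mice aged 2 years. The labels name no sex, tumour histology or animal, and p-values therefore reflect only how far these 12 samples spread. The samples were pieces of tissue, and in such material fewer cells of a type and less RNA per cell cannot be told apart.

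Foreign compounds and reactive aldehydes are handled in steps. Oxidizing, reducing and hydrolysing enzymes first expose or change a polar group, and transferases then attach glutathione, glucuronic acid or sulfate, which makes the product easier to export. In the lung the club cells of the airway lining are known for high levels of several of these enzymes. Many glutathione transferase genes, with Nqo1 and the genes of glutathione synthesis, are known targets of the transcription factor NRF2, which binds the antioxidant response element.

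RefSeq windows from 250 bases before to 50 bases after the gene start (GRCm38.p6) were found for 70 of the 84 genes. The core of the antioxidant response element, TGACNNNGC read on both strands, was present in the windows of 6 of the 70 (8.57%), against 14.0% of the 27025 genes with a window and 12.4% of all 32851 windows. These 6 were Aldh1a2, Aldh9a1, Gsta3, Gstm5, Gstm7 and Mgst1. It was present in 2 of 9 windows of genes that rose in tumours (22.2%) and in 1 of 14 of genes that fell (7.14%), and a match of letters is a description, not a binding site. The 3 windows are shown because they pair this element with genes that changed in opposite directions; capitals mark the element, on the minus strand in Mgst1 and on the strand of the gene in the others.
Mgst1, chr6:138140277-138140576, plus strand: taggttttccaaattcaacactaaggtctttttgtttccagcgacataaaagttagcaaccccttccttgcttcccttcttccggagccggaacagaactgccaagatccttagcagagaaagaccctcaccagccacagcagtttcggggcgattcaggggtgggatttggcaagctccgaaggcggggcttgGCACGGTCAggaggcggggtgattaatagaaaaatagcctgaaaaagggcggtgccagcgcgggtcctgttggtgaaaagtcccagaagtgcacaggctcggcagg
Aldh9a1, chr1:167349741-167350040, plus strand: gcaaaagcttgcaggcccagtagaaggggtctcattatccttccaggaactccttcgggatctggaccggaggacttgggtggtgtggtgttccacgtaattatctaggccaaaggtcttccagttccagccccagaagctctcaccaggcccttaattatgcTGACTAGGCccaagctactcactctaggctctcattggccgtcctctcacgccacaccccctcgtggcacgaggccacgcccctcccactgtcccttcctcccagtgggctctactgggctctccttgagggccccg
Gstm7, chr3:107931565-107931864, minus strand: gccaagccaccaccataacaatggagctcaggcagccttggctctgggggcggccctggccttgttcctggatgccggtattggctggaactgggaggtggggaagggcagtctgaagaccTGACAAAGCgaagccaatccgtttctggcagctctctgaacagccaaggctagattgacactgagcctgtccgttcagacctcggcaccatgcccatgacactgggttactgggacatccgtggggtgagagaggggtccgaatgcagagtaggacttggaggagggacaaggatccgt

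The element began 56 bases before the start of Mgst1, 87 before that of Aldh9a1 and 129 before that of Gstm7. A second set of letters, GTTAAT on both strands, which forms a half-site of the liver and gut factor HNF1, was searched after the values of tumour 6 had been seen. It was present in 6 of the 70 windows (8.57%), those of Aldh1a7, Ces5a, Gsta3, Sult1a1, Sult1d1 and Ugt2a3, against 8.24% of the genes with a window and 7.10% of all windows, shares close to that of the enzyme genes. Sult1d1 and Ugt2a3 are shown because they lie in one run of neighbouring genes and differed in opposite ways, Sult1d1 falling in tumours and Ugt2a3 being high in tumour 6 alone; capitals mark the letters, which occur 2 times in Ugt2a3.
Sult1d1, chr5:87568957-87569256, minus strand: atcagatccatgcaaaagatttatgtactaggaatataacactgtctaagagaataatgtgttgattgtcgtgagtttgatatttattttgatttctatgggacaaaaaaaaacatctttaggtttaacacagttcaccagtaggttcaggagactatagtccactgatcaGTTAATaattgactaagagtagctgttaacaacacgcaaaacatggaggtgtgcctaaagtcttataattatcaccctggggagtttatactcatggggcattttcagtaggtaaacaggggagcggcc
Ugt2a3, chr5:87337146-87337445, minus strand: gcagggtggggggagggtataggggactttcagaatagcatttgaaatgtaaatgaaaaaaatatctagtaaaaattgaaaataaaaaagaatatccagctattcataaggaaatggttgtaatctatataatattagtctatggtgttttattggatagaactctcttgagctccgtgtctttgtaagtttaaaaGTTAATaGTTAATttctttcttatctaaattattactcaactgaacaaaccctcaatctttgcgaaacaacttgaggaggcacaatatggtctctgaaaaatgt

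Array signals were linear intensities scaled to the same trimmed mean, with medians of 151 to 164 in normal lungs and 126 to 150 in tumours. Transcripts of other cells differed between the groups. Over the marker lists, 5 of 8 club cell genes, 10 of 11 ciliated cell genes and 8 of 9 type I cell genes fell in tumours. All 10 endothelial genes fell too, while 3 of 9 type II cell genes rose. All 6 smooth muscle and all 6 cardiac genes fell, as did 6 of 10 fibroblast and 4 of 7 mesothelial genes. Of 9 alveolar macrophage genes 3 rose and 1 fell. Of all 18193 genes, 17.4% fell and 12.1% rose. The summed signal of the club cell list was 122714 to 179221 in normal lungs and 24607 to 74554 in tumours. Liver markers were high in normal lungs 2 and 4: the mean log2 signal of 18 liver genes was 9.60 and 10.37 there, 6.45 to 8.04 in the other 4 normal lungs and 6.01 to 6.96 in tumours. Neutrophil markers summed to 185532 in normal lung 1 and to at most 22163 in every other array. The Y-linked transcript Eif2s3y was at 740.5 to 1638 in tumours 1, 2, 3 and 5 and at most 27.4 in the other arrays. Xist, a transcript of female cells, was at 47.1 to 109 in those 4 tumours. It was at 12621 in tumour 4, 10184 in tumour 6 and 7877 to 11265 in normal lungs. All normal lungs thus read as female and tumours 1, 2, 3 and 5 as male. Sex and tumour status were therefore partly confounded in the main comparison. A fit that also included Eif2s3y (log2) was an alternative chosen with the data known. In that fit 9 of the 84 genes rose and 11 fell. Sult1c2 was among the 9 and had not passed in the main fit. All 29 genes named as changed below kept their sign there. The part of these cells and of sex in the results was not tested.

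More of the enzyme genes fell in tumours than rose, which also held for all genes on the array. Centring each array on its median reversed this order in both. Differences are tumour minus normal lung in log2(signal + 16), given as the difference ± standard error with n = 6 arrays in each group, and each p-value comes from limma, adjusted by Benjamini-Hochberg across the 45037 probe sets and read at 0.05. Of the 84 genes 11 rose, which is 13.1% against 12.1% of all 18193 genes, and 18 fell, which is 21.4% against 17.4%. The share that rose was thus close to that of the array as a whole. At least 2-fold changes that passed the test were seen in 7 genes upwards (8.33%, against 4.65% of all genes) and 17 downwards (20.2%, against 10.5%). The 6 normal lungs and 6 tumours did not overlap for 6 genes that were higher (7.14%, against 6.74%) and 14 that were lower (16.7%, against 11.7%). The median difference of the 84 genes was -0.07 and that of all genes -0.08. After centring each array on its median, 16 of the 84 rose and 14 fell, against 19.1% and 12.8% of all genes, and the median difference of all genes moved to 0.11.

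**Figure D1:**
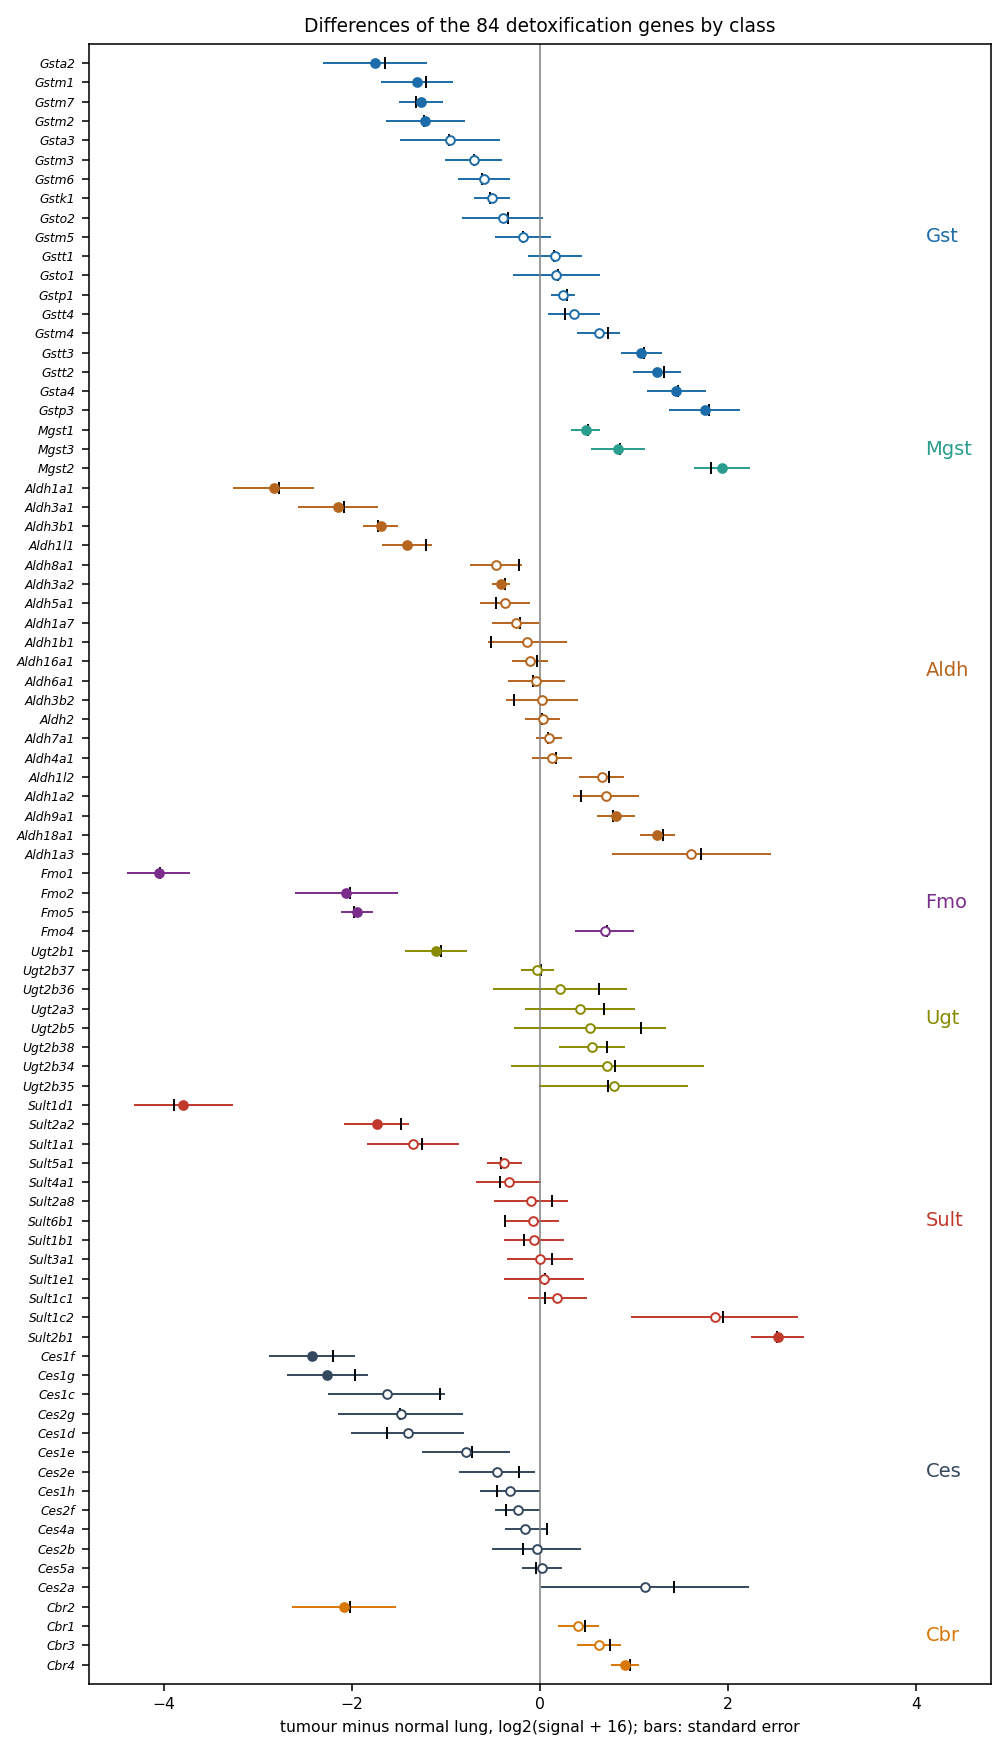
Difference between tumours and normal lungs for each of the 84 genes by enzyme class, in log2(signal + 16), with the standard error; filled points passed the limma threshold, open points did not, and black ticks give the value without normal lungs 2 and 4. Fmo1 (-4.06) and Sult1d1 (-3.79) lie lowest, Sult2b1 (2.53) lies highest among the filled points, and most ticks lie close to their points.

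Of 4 measured flavin monooxygenases 3 fell (75%, against 17.4% of all genes) and none rose. The median difference of the class was -2.003. These enzymes oxygenate nitrogen and sulfur atoms of drugs and other compounds. Fmo1 fell the most of the 84 genes. Its signal was 6268 to 10119 (median 8391) in normal lungs and 190.3 to 1386 (median 426) in tumours. Every tumour was lower than every normal lung, the mean went from 8352 ± 1388 to 583 ± 431 (SD), and the difference was -4.06 ± 0.34, adjusted p = 8.20e-07. Fmo5, a family member that acts on ketones, had signals of 548 to 608 (median 576) in normal lungs and 87.0 to 169 (median 155) in tumours. The groups did not overlap, and normal lungs were within a narrow range, at 574 ± 23.0 (SD, n = 6); the difference was -1.95 ± 0.17, adjusted p = 1.08e-06.

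Fmo2, the main form of the lung in many mammals, gave 11679 to 14475 (median 13481) in normal lungs. Tumours ran from 381 to 7952 (median 5050.2). They did not overlap with normal lungs and varied more among themselves, and the difference was -2.06 ± 0.54, adjusted p = 0.0117; without normal lungs 2 and 4 it was -2.02 and the adjusted p 0.0548 in limma. Fmo4, in contrast, was at 118 to 525 (median 348) in tumours and 109 to 229.5 (median 201) in normal lungs, a difference that did not pass (0.69 ± 0.32, adjusted p = 0.133). It passed without tumour 2, after quantile normalization or median centring, and with array weights. Fmo4, Fmo1 and Fmo2 are neighbours on chromosome 1 in the RefSeq order.

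Aldehyde dehydrogenases changed in both directions. Of 20 genes 2 rose (10%, against 12.1% of all genes) and 5 fell (25%, against 17.4%). Aldh1a1, which turns retinaldehyde into retinoic acid and clears lipid aldehydes, was at 16379.9 to 21280.4 (median 20772) in normal lungs. In tumours it was at 661 to 7682 (median 2982), with no overlap and a wide range between tumours. Its difference was -2.83 ± 0.43, adjusted p = 1.94e-04. Aldh3a1, which oxidizes medium-chain and aromatic aldehydes and is best known from the cornea, read 663 to 1009 (median 828) in normal lungs and 73.7 to 921 (median 138) in tumours. Tumour 6, at 921, was the highest tumour and lay among the normal lungs. The difference was -2.15 ± 0.43, adjusted p = 0.00166, which no longer passed with Eif2s3y as a covariate (adjusted p = 0.0780) or without tumours 1, 2, 3 and 5.

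Aldh3b1, an enzyme of lipid-derived aldehydes, had signals of 639 to 1303 (median 834) in normal lungs and 218 to 341 (median 246) in tumours. The ranges did not meet, and Aldh3b1 fell by 1.70 on the log2 scale (SE 0.19, adjusted p = 1.01e-05). Aldh1l1, a folate enzyme that oxidizes formyl-tetrahydrofolate, went from 354 ± 111 to 127 ± 51.9 (SD) (-1.41 ± 0.26, adjusted p = 0.00105). The smallest fall was that of Aldh3a2, the fatty aldehyde dehydrogenase, from 1301 ± 70.8 to 973 ± 73.7 (SD) (-0.41 ± 0.10, adjusted p = 0.00474). It is the neighbour of Aldh3a1 on chromosome 11. Its call was lost after centring on the array median (adjusted p = 0.111), and with Eif2s3y as a covariate or without the 4 tumours that carry it.

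Aldh18a1 and Aldh9a1 were the aldehyde dehydrogenases that rose. Aldh18a1 makes the precursor of proline, and its signal was 204 to 437 (median 419) in normal lungs and 706 to 1125 (median 887) in tumours. All tumours were higher than all normal lungs, and the difference was 1.25 ± 0.18, adjusted p = 1.41e-04. Aldh9a1, an enzyme of carnitine synthesis, moved from 1828 ± 554 to 3213 ± 955 (SD) (0.81 ± 0.20, adjusted p = 0.00779). A second Aldh9a1 probe set did not pass in limma (0.32, adjusted p = 0.132). Aldh18a1 and Aldh9a1 are both known for biosynthetic steps more than for foreign compounds.

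Among the retinaldehyde dehydrogenases only Aldh1a1 passed the test. Aldh1a2 was at 174 to 840.1 (median 586) in normal lungs and 514 to 1446 (median 671) in tumours (0.70 ± 0.35, adjusted p = 0.170). Aldh1a3 was at 19.4 to 2964 (median 50.8) in tumours, the highest being tumour 2, and 7.77 to 74.2 (median 22.4) in normal lungs (1.61 ± 0.85, adjusted p = 0.195). Aldh1a7, a close relative of Aldh1a1 beside it on chromosome 19, had a difference of -0.26 ± 0.25, adjusted p = 0.510. Probe sets for near-identical genes of this kind can pick up each other's transcripts.

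Aldh2, the mitochondrial enzyme that clears acetaldehyde, depended on the probe set. The brightest of its 5 probe sets gave 5881 to 10985 (median 8494) in normal lungs and 6439 to 10670.2 (median 7997) in tumours (0.03 ± 0.18, adjusted p = 0.940). Other probe sets fell by 1.09 (adjusted p = 3.79e-05) and by 1.18 (adjusted p = 2.56e-04), and the mean over the 5 gave -0.50 (adjusted p = 0.00719). A second probe set of Aldh8a1 fell by 1.33 (adjusted p = 0.0291), whereas the one used here had -0.46 (adjusted p = 0.256). The other aldehyde dehydrogenases that did not pass were Aldh16a1, Aldh1b1, Aldh1l2, Aldh3b2, Aldh4a1, Aldh5a1, Aldh6a1, Aldh7a1 and Aldh8a1. The 13 that did not pass had differences from -0.46 to 1.61.

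Carbonyl reductases gave 1 rise and 1 fall among 4 genes (25% each, against 12.1% and 17.4% of all genes). Cbr2, the lung carbonyl reductase, which is abundant in club cells, was at 32134 to 45364 (median 43896) in normal lungs. Tumours were at 1540.4 to 30632 (median 11619). The groups did not overlap, tumour 6 was the lowest, and the difference was -2.08 ± 0.56, adjusted p = 0.0124; without normal lungs 2 and 4 it was -2.02 (adjusted p = 0.0598). In the club cell list 5 of 8 genes also fell, as did 10 of 11 ciliated cell genes and all 10 endothelial genes. The part of any of these cells in the fall of Cbr2 was not tested.

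Cbr4, a mitochondrial reductase of fatty acid synthesis, read 422 to 642 (median 495) in normal lungs and 767 to 1253 (median 972) in tumours. No tumour lay in the normal range, and the rise was 0.90 ± 0.15, adjusted p = 4.26e-04. The cytosolic reductases Cbr1 and Cbr3, neighbours on chromosome 16, had differences of 0.41 ± 0.22 (adjusted p = 0.20) and 0.63 ± 0.23 (adjusted p = 0.0625). Neither passed the threshold. For Cbr3, normal lung 2 stood out at 1995 against a normal median of 1232, and without that array, or without tumour 1, 2 or 4, the gene passed.

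Carboxylesterases hydrolyse esters of drugs and lipids. Of 13 genes 2 fell (15.4%, against 17.4% of all genes) and none rose (against 12.1%). Differences were below 0 for 11 of the 13, and for 10106 of all 18193 genes. Both falls were in the Ces1 group, all 6 of which had negative differences (median -1.52). Ces1f was at 226 to 845 (median 317) in normal lungs and 2.42 to 138 (median 54.0) in tumours (-2.42 ± 0.46, adjusted p = 0.00119). For Ces1g the values were 75.9 to 579 (median 220.4) and 15.4 to 127 (median 32.0) (-2.26 ± 0.43, adjusted p = 0.00116). Ces1f did not overlap between the groups, whereas the highest Ces1g tumour, tumour 5 at 127, lay above the lowest normal lung.

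The liver is a known source of these transcripts. Ces1f in normal lungs 2 and 4 was at 845 and 284, against 226 to 404 in the other 4. For Ces1g the same arrays were at 579 and 222, against 75.9 to 322. Without them Ces1f was still lower in tumours (-2.20, adjusted p = 0.0101), as was Ces1g (-1.96, adjusted p = 0.0102). Normal lung 2 was the highest array for both genes, whereas normal lung 4 lay within the range of the others.

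Ces1d, a lung and liver esterase that also hydrolyses triglyceride, was at 5408 to 12846 (median 7176) in normal lungs. Tumours were at 702 to 15208 (median 4303) and overlapped with them (-1.41 ± 0.60, adjusted p = 0.109). Another Ces1d probe set fell by 2.02 (adjusted p = 0.0155), and without tumour 5 the one used here passed as well. Ces2e, of the Ces2 group, had -0.46 ± 0.40, adjusted p = 0.465. No Ces2 gene of 5 passed. The other carboxylesterases that did not pass were Ces1c, Ces1e, Ces1h, Ces2a, Ces2b, Ces2f, Ces2g, Ces4a and Ces5a, and the 11 uncalled differences ran from -1.63 to 1.12.

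**Figure D2:**
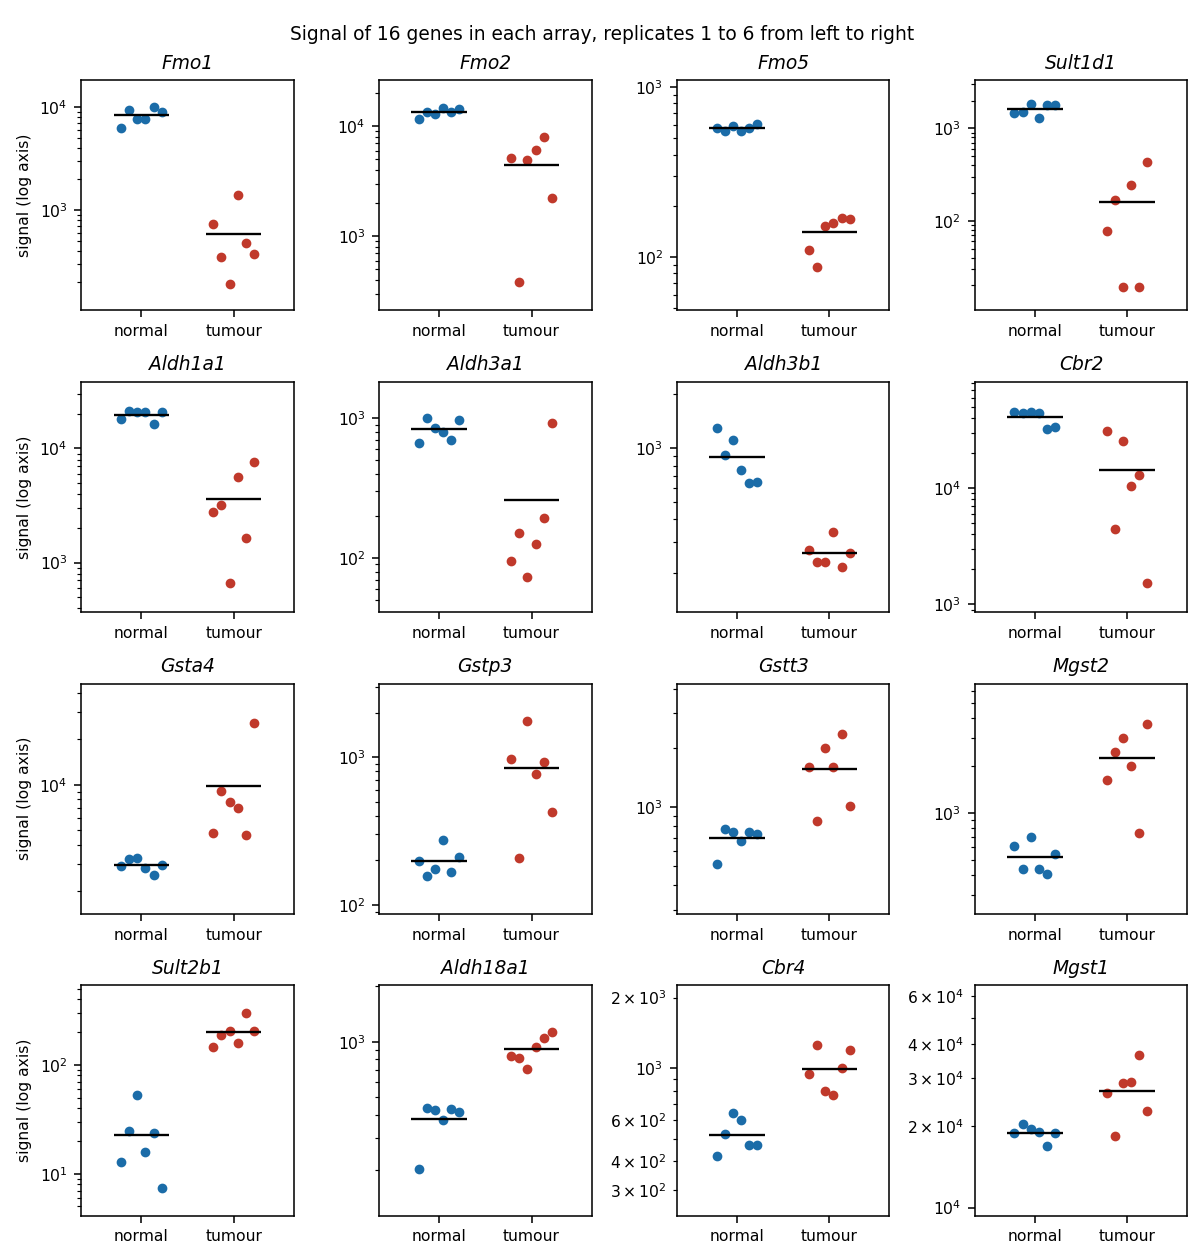
Signal of 16 of the enzyme genes in each normal lung and each tumour, on a log axis, with a line at the mean of each group. The groups do not overlap for Fmo1, Fmo5, Sult1d1 and Sult2b1 among others, and Aldh3a1 in tumour 6 (921) lies far above the other tumours.

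Of 19 glutathione transferases outside the microsomal family, 4 rose and 4 fell (21.1% each, against 12.1% and 17.4% of all genes). The direction followed the subfamily in part. In the alpha group, Gsta4, which conjugates the lipid peroxidation product hydroxynonenal, was at 2549 to 3277 (median 2927) in normal lungs and 4650.2 to 25611 (median 7315) in tumours. All tumours were higher, tumour 6 by far, and the difference was 1.45 ± 0.32, adjusted p = 0.00319. Gsta2, by contrast, fell: it was at 484 to 1143 (median 768) in normal lungs and 54.8 to 976 (median 181) in tumours (-1.75 ± 0.55, adjusted p = 0.0313). Gsta3, another alpha enzyme, had a difference of the same sign that did not pass (-0.96 ± 0.53, adjusted p = 0.225).

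The 7 mu enzymes conjugate many electrophilic compounds. Of them 3 fell (42.9%, against 17.4% of all genes), none rose and 6 had negative differences. Gstm1, at 11553 to 17148 (median 13696) in normal lungs, was at 1330.4 to 11101 (median 6757) in tumours. Tumour 2 was the lowest, no tumour reached a normal lung, and the difference was -1.31 ± 0.38, adjusted p = 0.0200. Gstm7 went from 234 ± 59.4 to 89.6 ± 33.6 (SD) (-1.26 ± 0.23, adjusted p = 9.35e-04) and Gstm2 from 5454 ± 749 to 2877 ± 1568 (SD) (-1.22 ± 0.42, adjusted p = 0.0478). A second Gstm7 probe set did not pass in limma (-0.13, adjusted p = 0.770). The Gstm genes lie together on chromosome 3 and are similar in sequence, so their probe sets may not be fully specific.

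Theta and pi enzymes gave the other rises. Gstt3 was at 516 to 775 (median 739.9) in normal lungs and 853 to 2363 (median 1607) in tumours (1.08 ± 0.22, adjusted p = 0.00192). Gstt2 moved from 566 ± 67.7 to 1482 ± 610.1 (SD) (1.25 ± 0.26, adjusted p = 0.00235). The other theta genes, Gstt1 and Gstt4, were in the same cluster on chromosome 10 and did not pass; Gstt1 had 0.16 ± 0.29, adjusted p = 0.747. Gstp3, a neighbour and relative of Gstp1, was at 157 to 275 (median 187) in normal lungs and 207 to 1743 (median 849.6) in tumours. It rose by 1.75 ± 0.38, adjusted p = 0.00290, and the lowest tumour lay within the normal range. Gstp1, the abundant pi enzyme, was at 9781 to 13066 (median 11023) in normal lungs and 10926 to 16029 (median 13251) in tumours and did not pass (0.24 ± 0.13, adjusted p = 0.202).

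Gsto1, an omega enzyme that reduces dehydroascorbate and thiols, did not pass (0.17 ± 0.46, adjusted p = 0.832). It split the tumours, with 12569 in tumour 2 and 11706 in tumour 6 against 1539 to 4438 in the other 4 and 3075 to 4322 (median 3596) in normal lungs. The other Gst genes that did not pass were Gstk1, Gstm3, Gstm4, Gstm5, Gstm6, Gsto2 and Gstt4. Without normal lungs 2 and 4, the falls of Gsta2 (adjusted p = 0.116), Gstm1 (0.0926) and Gstm2 (0.127) no longer passed, and all 4 rises did. Leaving out single arrays also ended the Gsta2 call (up to 0.0699, without normal lung 2, 3, 4 or 6 or tumour 1, 3 or 4) and the Gstm2 call (up to 0.0879, without any normal lung or tumour 1 or 6).

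All 3 microsomal glutathione transferases rose (100%, against 12.1% of all genes). Mgst2, which also takes part in leukotriene synthesis, read 406 to 703 (median 489) in normal lungs and 747 to 3707 (median 2214) in tumours. It did not overlap between the groups, and the difference was 1.94 ± 0.30, adjusted p = 2.31e-04. Mgst1, which conjugates and reduces lipid peroxides in membranes, went from 18850.3 ± 1133 to 26946 ± 6174 (SD) (0.48 ± 0.16, adjusted p = 0.0355), and Mgst3 from 1372 ± 115 to 2818 ± 1769.6 (SD) (0.83 ± 0.29, adjusted p = 0.0471). The calls of the latter pair were weak: without normal lungs 2 and 4 the adjusted p was 0.0889 for Mgst1 and 0.123 for Mgst3. After quantile normalization the Mgst1 difference was 0.14 (adjusted p = 0.563). Both calls were lost without any 1 of the normal lungs; that of Mgst1 was also lost without tumour 1, 3, 4 or 5 (up to 0.0736), and that of Mgst3 without tumour 2, 5 or 6 (up to 0.0913).

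Glucuronosyltransferases attach glucuronic acid to steroids, bilirubin and drugs, and 7 of the 8 measured did not pass the test in either direction. The exception, Ugt2b1, was dim in both groups, at 31.1 to 114 (median 51.2) in normal lungs and 3.99 to 47.4 (median 19.2) in tumours. It fell by 1.11 on the log2 scale (SE 0.33, adjusted p = 0.0232), and the call was lost without normal lungs 2 and 4 (0.0520), and without normal lung 4 or tumour 1 (up to 0.0538). Both group medians were below the median of their arrays. The other 7 genes were Ugt2a3, Ugt2b5, Ugt2b34, Ugt2b35, Ugt2b36, Ugt2b37 and Ugt2b38, with differences from -0.03 to 0.78. Several of them were high in a single tumour.

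Sulfotransferases gave 1 large rise (7.69%, against 12.1% of all genes) and 2 falls (15.4%, against 17.4%) among 13 genes. Sult1d1, which sulfates catecholamines and phenols in the mouse, was at 1307 to 1839 (median 1637) in normal lungs and 19.3 to 436 (median 122) in tumours. Every tumour was below every normal lung, and the difference was -3.79 ± 0.53, adjusted p = 7.97e-05. Sult2b1, which sulfates cholesterol and related sterols, had the opposite pattern, with 7.42 to 52.7 (median 19.8) in normal lungs and 146 to 298 (median 196) in tumours. It rose by 2.53 ± 0.28, adjusted p = 1.06e-05, the largest rise of the 84 genes that passed the test.

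Sult2a2, a hydroxysteroid sulfotransferase known from liver, was at 87.9 to 447 (median 112) in normal lungs and 17.5 to 46.5 (median 33.9) in tumours. Normal lung 4 was the highest, at 447, and the next normal lung was at 198. The fall was -1.74 ± 0.35, adjusted p = 0.00185, and -1.48 (adjusted p = 0.00379) without normal lungs 2 and 4. Sult1a1, the main phenol sulfotransferase, had -1.35 ± 0.49, adjusted p = 0.0592; it passed when tumour 1 or tumour 6 was left out. Sult1c1 had 0.19 ± 0.32, adjusted p = 0.731. The other sulfotransferases that did not pass were Sult1b1, Sult1c2, Sult1e1, Sult2a8, Sult3a1, Sult4a1, Sult5a1 and Sult6b1, and 7 of the 13 probe sets lay under the array median in both groups.

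Leaving out normal lungs 2 and 4 moved most differences by less than 0.2 and ended 8 calls. With 4 normal lungs against 6 tumours, 9 genes rose and 12 fell, against 8.38% and 13.3% of all genes, and all 21 were among the 29 called with all arrays. The 8 calls that were lost were those of Mgst1 and Mgst3 upwards and Cbr2, Fmo2, Gsta2, Gstm1, Gstm2 and Ugt2b1 downwards, with adjusted p from 0.0520 to 0.127 in limma. Their differences moved by at most 0.10. The part of the smaller number of arrays in the lost calls was not tested. Over the 84 genes the median absolute shift was 0.07; 12 moved up and 5 moved down by 0.2 or more.

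The shifts differed by class. No Fmo, Gst, Mgst or Cbr gene moved by 0.2, and the largest shift in these 4 classes was 0.12 (Cbr3). Of 13 Ces genes 7 moved by 0.2 or more, 6 of them upwards, the largest being Ces1c, from -1.63 to -1.07. Of the 8 Ugt genes 3 moved upwards by that much, Ugt2b5 the most (0.53 to 1.08). Among the 29 called genes, 3 moved by 0.2 or more, Ces1g, Ces1f and Sult2a2, and all of them stayed past the threshold.

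**Figure D3:**
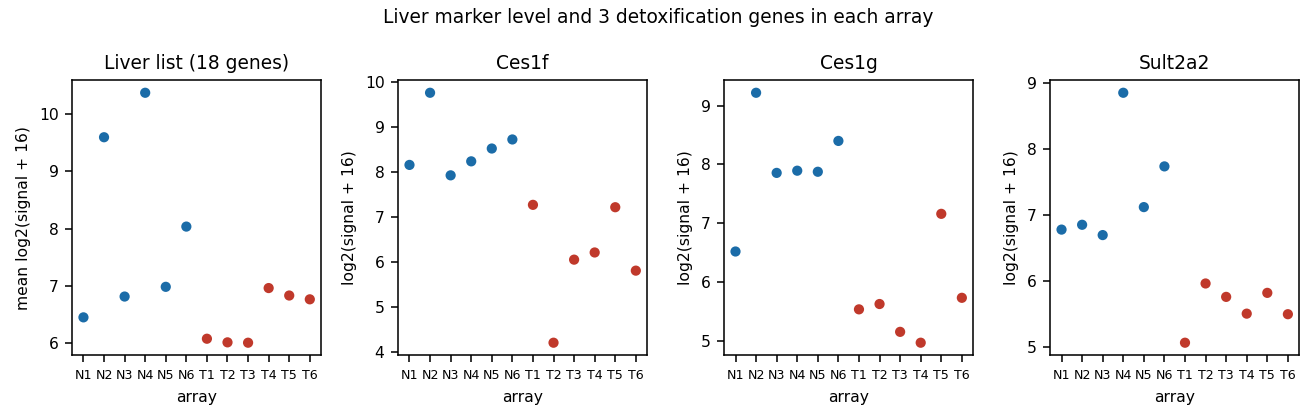
Mean log2 signal of 18 liver marker genes per array, beside the signals of Ces1f, Ces1g and Sult2a2. Normal lungs 2 and 4 have the highest liver marker means (9.60 and 10.37), and the 3 enzyme genes are lower in tumours than in most of the normal lungs with low liver marker means.

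Single tumours stood apart for some of the genes, most of them known from liver and gut. In tumour 6, 8 of the 84 genes (9.52%) were at least 4-fold above every other array, on the scale of signal + 16, against 0.22% of all genes. Ugt2b34 was at 7612 in tumour 6 and at most 119 in any other array, 56.3-fold higher. Ces2a was at 5332 there and at most 81.6 elsewhere (54.8-fold), and Sult1c2 at 4136 and at most 128 (28.9-fold). The remaining 5 were Ugt2b35 (2237, 21.4-fold), Ugt2b5 (802, 10.6-fold), Ugt2b36 (1276, 9.41-fold), Ugt2a3 (275, 5.91-fold) and Ces2g (2731, 4.60-fold). Just below the limit of 4-fold was Gsta4, 2.80-fold above the next array.

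These 8 genes were glucuronosyltransferases, Ces2 esterases and 1 sulfotransferase, and none was called between the groups. In tumour 2 the only such gene was Aldh1a3, at 2964 against at most 150 elsewhere (18.0-fold); 0.17% of all genes were as high in tumour 2. No other array had such a gene among the 84. Being single arrays, these values have no replicate. The transcription factor gene Hnf4a, which is known from liver and gut, was at 7.28, 716, 19.4, 319, 165 and 1987 in tumours 1 to 6 and at most 170.5 in normal lungs. Tumour 6 was thus the highest and tumour 2 next. The mean log2 signal of the type II cell list was 13.48 in tumour 2 and 13.17 in tumour 6, against 14.43 to 14.68 in the other 4 tumours. The part of either in the enzyme values was not tested. Without tumours 2 and 6, 14 of the 84 genes rose and 19 fell, against 14.0% and 18.5% of all genes.

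**Figure D4:**
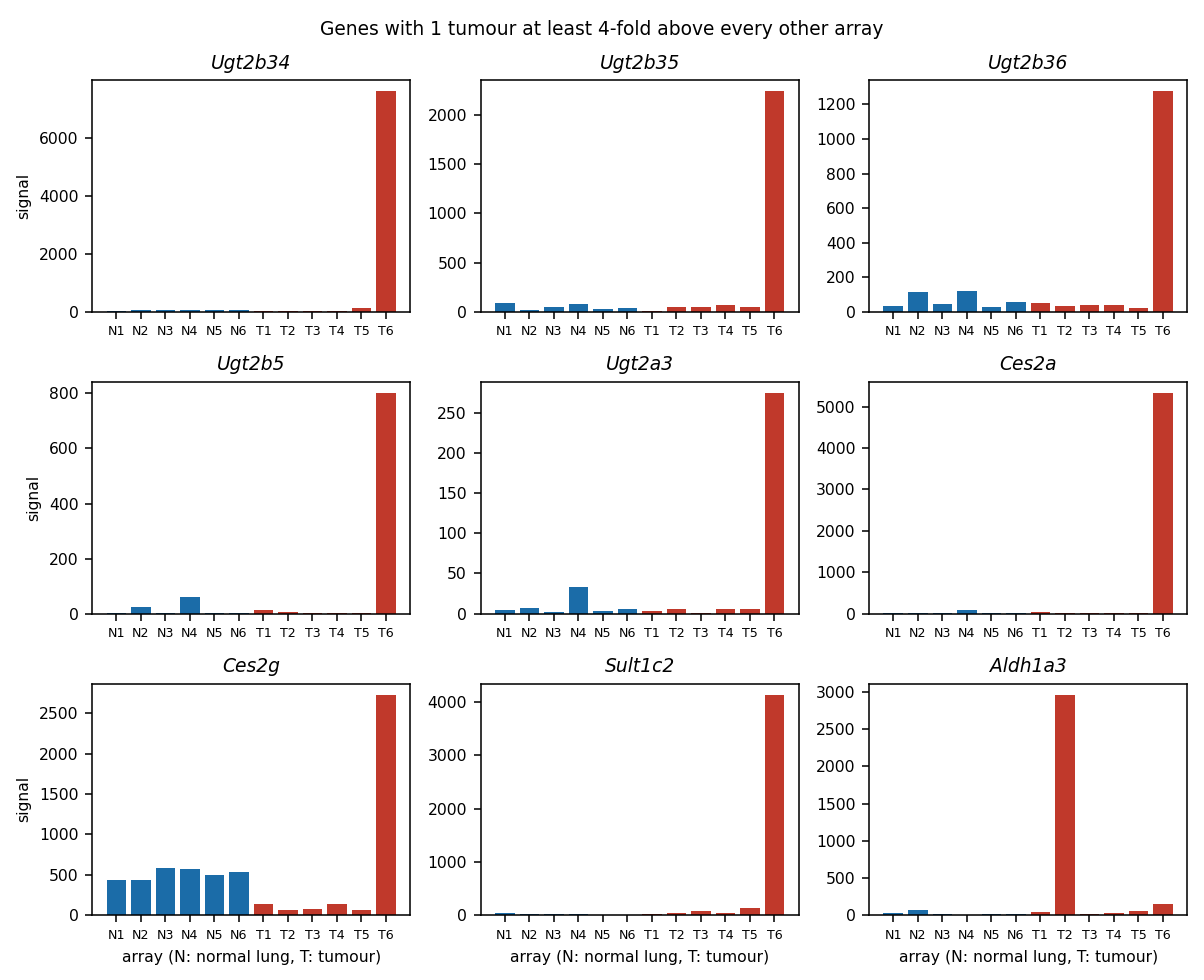
Signal of the 9 enzyme genes that were at least 4-fold above every other array in 1 tumour, 1 bar per array. For 8 of them the high bar is tumour 6, from 275 (Ugt2a3) to 7612 (Ugt2b34), and for Aldh1a3 it is tumour 2 (2964).

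**Figure D5:**
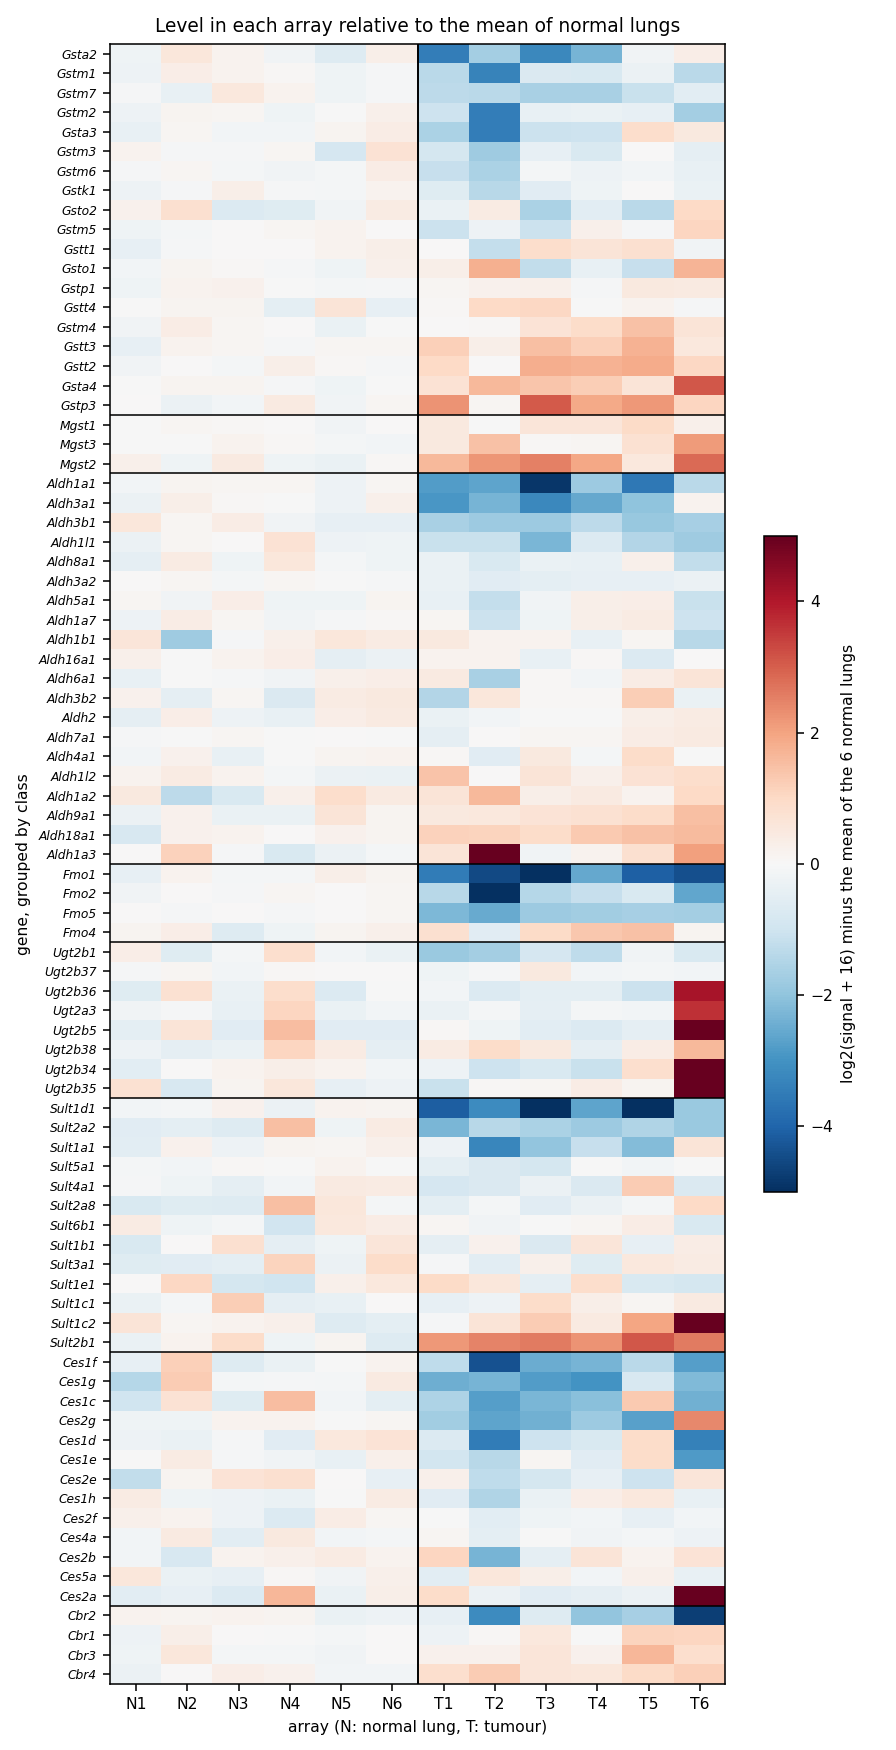
Log2(signal + 16) of the 84 genes in each array relative to the mean of the 6 normal lungs, ordered by class. Tumour 6 stands out in the Ugt2 and Ces2 rows, while Fmo1 and Sult1d1 are low in every tumour.

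Many of the genes lie side by side: 54 of the 84 form 14 runs of neighbours in the RefSeq order, with at most 3 other genes between members of a run. The longest holds 11 genes on chromosome 5, from Ugt2b34 to Sult1e1. It contains 5 of the 8 genes that were high in tumour 6, all of them Ugt2 genes, and also Sult1d1 and Ugt2b1, which fell. Fmo4, Fmo1 and Fmo2 form one on chromosome 1, and Aldh9a1 and Mgst3, which both rose, another on the same chromosome. The 7 Gstm genes lie on chromosome 3 and the Gstt genes on chromosome 10. Runs on chromosome 8 hold the Ces1 genes with Ces5a, and the Ces2 genes with Ces4a. No run held both a gene that rose and a gene that fell.

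Other genes of the same pathways were counted in lists drawn up by function. Of 20 measured NRF2 pathway genes outside the 84, 6 rose (30%, against 12.1% of all genes) and 1 fell (5%, against 17.4%). Their median difference was 0.35. Nfe2l2, which encodes NRF2, rose by 0.81 ± 0.12, adjusted p = 1.54e-04. Me1, the malic enzyme that makes NADPH, rose by 2.31 ± 0.18, adjusted p = 5.54e-07, and Hmox1, haem oxygenase, by 1.60 ± 0.33, adjusted p = 0.00208. Gclc, the catalytic subunit of glutathione synthesis, rose by 1.14 ± 0.19, adjusted p = 4.06e-04, Abcc4, an exporter, by 1.84 ± 0.35, adjusted p = 0.00106, and Osgin1 by 0.92 ± 0.29, adjusted p = 0.0315. Nqo1, a quinone reductase and a standard target of NRF2, went the other way (-1.56 ± 0.30, adjusted p = 0.00124).

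Of 14 measured xenobiotic receptor genes and partners 1 rose and 1 fell (7.14% each, against 12.1% and 17.4% of all genes). The one that rose was Cebpa, a transcription factor of liver and lung epithelium (1.60 ± 0.36, adjusted p = 0.00401), and Cebpb fell (-0.48 ± 0.16, adjusted p = 0.0416). Among 23 other conjugating, hydrolysing and oxidizing enzymes 4 rose and 5 fell (17.4% and 21.7%, against 12.1% and 17.4% of all genes). Pon1, a paraoxonase, had -4.81 ± 0.35, adjusted p = 2.87e-07, and Inmt, an amine methyltransferase of lung fibroblasts, -4.29 ± 0.60, adjusted p = 8.78e-05. Akr1c14 (-2.11 ± 0.57, adjusted p = 0.0126), Nnmt (-0.87 ± 0.26, adjusted p = 0.0214) and Nqo1 fell too. Akr1b8, an aldose reductase relative, rose by 2.32 ± 0.29, adjusted p = 3.12e-05; the others that rose were Pon3 (0.90 ± 0.21), Pon2 (0.58 ± 0.15) and Akr1a1 (0.36 ± 0.11).

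Transporters gave 1 rise, that of Abcc4, and 5 falls among 16 (6.25% and 31.25%, against 12.1% and 17.4% of all genes). The uptake carrier Slco3a1 (-2.17 ± 0.20, adjusted p = 1.64e-06) and the exporter Slc47a1 (-2.86 ± 0.43, adjusted p = 1.69e-04) had the largest falls, followed by Slco2a1 (-1.01 ± 0.19), Abcb4 (-0.75 ± 0.22) and Slc22a5 (-0.46 ± 0.15). Of 16 genes that supply cosubstrates or take part in the breakdown of glutathione, 3 rose and 2 fell, against 12.1% and 17.4% of all genes. Papss1 and Papss2, which make the sulfate donor, moved in opposite directions (0.54 ± 0.16, adjusted p = 0.0224 and -1.29 ± 0.28, adjusted p = 0.00290). In the supply and breakdown of glutathione, Gclc and Chac2 (0.97 ± 0.27, adjusted p = 0.0166) rose and Dpep1 (-3.79 ± 0.49, adjusted p = 3.91e-05) fell.

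Genes of retinoid handling fell beside Aldh1a1: of 16 measured none rose and 7 fell, against 12.1% and 17.4% of all genes (median difference -0.39). Adh1, which makes retinaldehyde from retinol, had -2.81 ± 0.44, adjusted p = 2.33e-04, and Lrat, which stores retinol as ester, -3.39 ± 0.25, adjusted p = 3.11e-07. Cyp26b1, which breaks down retinoic acid, had -2.30 ± 0.37, adjusted p = 2.74e-04. The receptor genes Rarb (-1.65 ± 0.25, adjusted p = 1.53e-04) and Rarg (-0.46 ± 0.15, adjusted p = 0.0325) fell, as did Adh7 (-1.11 ± 0.21) and Crabp1 (-1.02 ± 0.34). They included genes of steps before and after the one that Aldh1a1 catalyses.

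The calls of 9 genes of these lists depended on single arrays. Those of Cebpb, Crabp1, Osgin1, Rarg and Slc22a5 were lost when any of 6 to 10 single arrays was left out (adjusted p up to 0.0894). Those of Abcb4 without normal lung 2, Akr1a1 without normal lung 1, Nnmt without normal lung 5 and Papss1 without normal lung 1 or 6 were lost with an adjusted p of at most 0.0581. Without normal lungs 2 and 4 all of these except Crabp1, and also Chac2 (0.0763), did not pass. With Eif2s3y as a covariate the calls lost included those of Abcb4, Akr1a1, Cebpa, Cebpb and Crabp1.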

How the data were processed

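Total RNA from 6 spontaneous tumours and from 6 normal lungs was hybridised to 1 Affymetrix array per sample, per the labels, and the sample titles gave the groups. The authors deposited 1 linear signal intensity for each probe set. Per the submitters' processing notes MAS5 was used, with version and settings not given in the sources used here. Every array had the same 2% trimmed mean (500.0), so this scaling was kept. The number of arrays limits the precision.

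Of 45101 probe sets, 64 array controls were left out. Symbols came from GEO's platform annotation and were checked against RefSeq (GRCm38.p6), where all 123 probe sets of the 84 genes matched; 61 genes had 1 probe set and 23 several. Another 8 probe sets of these families carried several symbols and were left out. Log2(signal + 16) was fitted in R 4.3.3 with the package limma 3.58.1 on all 12 arrays without a covariate (moderated variances following an intensity trend), two-sided, with Benjamini-Hochberg adjustment over 45037 probe sets. The offset shrinks differences of dim genes. The fit was tested on data simulated for 6 against 6 arrays with 200 changed probe sets, fewer than were called in the real data. It recovered 0% of log2 differences of 0.5, 22% of those of 1, 82% of those of 2 and 100% of those of 4. A gene that did not pass can therefore still differ. Tables and figures were made with Python 3.11.15.

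Values are given for the genes that passed in each class, up to 6 in each direction, and for a list of well-known enzymes whatever their result; Ugt2b1, Fmo4 and the genes high in 1 tumour were named after their values were seen. The genes, lists, marker sets and alternatives were chosen with earlier results of these data known. Alternatives were the offset, scaling, a filter on dim probe sets, the variance trend, array weights, the replicate block, the probe set used, Eif2s3y, and leaving out arrays; leaving out tumours 2 and 6 and choosing probe sets by mean linear signal were added after seeing the files.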

Additional observations from a re-analysis of the deposited data

Results flagged for a closer look

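For 50 of the genes, each with 6 normal lungs and 6 tumours, the gap between the most extreme array and its nearest neighbour was compared with the range of the group (Dixon's criterion at 95%). It was exceeded in 17 of 100 groups, where chance gives about 1 in 20.

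Among the 17 were high values of tumour 6 for 8 genes already described. Of these, Ugt2b34 was at 7612, Ces2a at 5332, Sult1c2 at 4136 and Ces2g at 2731. The rest were Ugt2b35 at 2237, Ugt2b36 at 1276, Ugt2b5 at 802 and Ugt2a3 at 275. Genes were entered into this comparison partly because they were high in 1 tumour, so their flags follow from the choice. Aldh3a1 in tumour 6, at 921, was also among the 17 and lay far above the other tumours, the next being at 193. Tumour 2 stood apart with a high Aldh1a3 (2964) and a low Gstm1 (1330.4), and tumour 5 with a high Ces1g (127).

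Among normal lungs, lung 1 was low in Aldh18a1 (204) and Gstt3 (516), genes that rose in tumours. The same lung had the high neutrophil transcripts given above; their part in these values was not tested. Normal lung 2 was high in Cbr3 (1995). Normal lung 3 was high in Sult1c1 (62.2) and normal lung 4 in Ugt2a3 (33.2), both dim signals.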

How the results depend on the processing

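Over 26 alternatives the 84 genes had 9 to 16 rises and 11 to 22 falls. Called in every one were 8 of the 11 rises (Aldh18a1, Aldh9a1, Cbr4, Gsta4, Gstt2, Gstt3, Mgst2 and Sult2b1) and 10 of the 18 falls (Aldh1a1, Aldh1l1, Aldh3b1, Ces1f, Ces1g, Fmo1, Fmo5, Gstm7, Sult1d1 and Sult2a2), and all 29 kept their sign. With Eif2s3y as a covariate the falls numbered 11, and 10 of the 29 calls were lost (adjusted p from 0.0536 to 0.398 in limma): Aldh3a1, Aldh3a2, Fmo2, Gsta2, Gstm1, Gstm2, Gstp3, Mgst1, Mgst3 and Ugt2b1. Of the named genes that did not pass, 4 changed sign in some setting. Aldh2 went to -0.50 over the mean of its probe sets, where it passed, and 2 of the 5 carry the fall; its other sign changes were between -0.18 and -0.02. Gsto1 went to -0.15 without tumour 2, -0.13 without tumour 6, -0.61 without both and -0.06 with array weights, Aldh1a7 to 0.14 without tumours 2 and 6, and Ces2e to 0.11 without tumours 1, 2, 3 and 5; none of these passed. Leaving out 1 array gave 9 to 14 rises and 15 to 21 falls. Aldh1l2 and Gstm4 also passed upwards without tumour 2, Gstm4 without tumour 1, Ces1c and Gstk1 downwards without tumour 5 and Ces2g downwards without tumour 6.

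Over all 45037 probe sets, 4529 rose and 6279 fell. The rises numbered 7431 after median centring, 3003 without normal lungs 2 and 4 and 2603 with the Eif2s3y covariate, where 4069 fell; without 1 array they ranged from 3839 to 4858 and the falls from 5617 to 6321. Rises and falls were 5638 and 5505 after quantile normalization and 7431 and 4566 after median centring, and the median difference moved from -0.06 to 0.05 and 0.13. The cause of these changes was not tested. With the replicate number as a block, 3969 rose and 5646 fell, and among the 84 genes 9 rose and 17 fell, with the calls of Gstm2, Mgst1 and Mgst3 lost. The numbers did not pair the arrays: same-numbered deviations correlated at -0.02 to 0.02, and no array correlated best with its own number. Dim signals limit 24 of the 84 genes, whose brighter group lay below the array median; their differences are shrunk by the offset.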

Other observations

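Probe sets of the same gene did not always give the same call. Of the 23 genes with several probe sets, none had probe sets called in opposite directions. In 3 genes that did not pass (Aldh2, Aldh8a1 and Ces1d), another probe set fell. Of the 10 called genes with several probe sets, 3 had every probe set called. For Aldh9a1, Gstm7, Mgst1 and Mgst3 only the probe set used here passed.

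The brightest signals differed between normal lungs. The highest signal of any probe set was 44532 in normal lung 5 and 43763 in normal lung 6, against 57345 to 64503 in normal lungs 1 to 4. Cbr2, near the top of that range, was at 32134 and 33325 in lungs 5 and 6 and at 43884 to 45364 in the other 4.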
